A study of Mus musculus with 2 samples.

Results

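Enzymes and helpers of collagen maturation were followed through mouse tumour tissue: the prolyl hydroxylase subunit P4ha1, the lysyl hydroxylases Plod1 and Plod2, the collagen chaperone Serpinh1, and the crosslinking oxidases Lox and Loxl2. They were taken by name and are 6 of the 9127 gene symbols listed for both libraries. Their raw molecule counts were added up per library over endothelial, mural, fibroblast and Krt8/Krt18 positive cells, the classes being assigned cell by cell from marker genes that include no member and no collagen. The Myct1 knockout library came from mice whose genotype label reads Cdh-cre Myct1 fl/fl, and the wild-type (WT) library from mice labelled WT. The series title spells the driver Cdh5-cre, which places Cre under the promoter of the endothelial cadherin gene, so that deletion is directed at endothelium. Both genotypes were on the C57BL/6 strain, and each library pooled tumours of 4 mice into 1 digested cell suspension. Nothing used here states the tumour model, the age of the mice, a cell sort or which exon is floxed. With 1 library per genotype there is no replicate: no test was made, cells are not replicates, intervals in brackets are exact 95% intervals for counting error only, and a difference of library, batch or mouse cannot be told apart from genotype.

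A collagen chain is hydroxylated on prolines and lysines while it is still in the endoplasmic reticulum. P4ha1 carries the catalytic site of the prolyl hydroxylase that stabilises the triple helix, Plod1 hydroxylates lysines mainly in the helical region, and Plod2 those in the telopeptides, which sets the kind of crosslink formed later. Serpinh1, also called HSP47, binds the folded triple helix on its way to the Golgi. Outside the cell, Lox and Loxl2 oxidise lysine and hydroxylysine side chains to aldehydes, from which the crosslinks between fibrils form. In tumours these genes are studied in stromal fibroblasts and as targets of low oxygen.

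Promoter sequence was on hand for 3 of the members whose sequence is printed, and is shown because P4ha1 and Plod1 behaved differently beside hypoxia genes in the results that follow. Each line gives the 250 bases before the RefSeq transcription start (GRCm38.p6), 5′ to 3′ on the gene's strand. Capitals mark the letters ACGTG or GCGTG, the cores of the hypoxia response element, and GGGCGG, the GC box, on either strand.
P4ha1, chr10:59323046-59323295, plus strand: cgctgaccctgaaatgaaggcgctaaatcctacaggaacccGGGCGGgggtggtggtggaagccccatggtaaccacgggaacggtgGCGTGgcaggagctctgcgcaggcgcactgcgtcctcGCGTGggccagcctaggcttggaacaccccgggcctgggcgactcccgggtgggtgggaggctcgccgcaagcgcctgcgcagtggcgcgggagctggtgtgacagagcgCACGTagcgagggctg
Plod1, chr4:147936777-147937026, minus strand: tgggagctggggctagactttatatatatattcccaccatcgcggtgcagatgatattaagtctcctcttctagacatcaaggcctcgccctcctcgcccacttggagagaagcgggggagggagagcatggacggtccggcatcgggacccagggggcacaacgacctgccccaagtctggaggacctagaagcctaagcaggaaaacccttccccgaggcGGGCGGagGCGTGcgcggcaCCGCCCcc
Serpinh1, chr7:99353240-99353489, minus strand: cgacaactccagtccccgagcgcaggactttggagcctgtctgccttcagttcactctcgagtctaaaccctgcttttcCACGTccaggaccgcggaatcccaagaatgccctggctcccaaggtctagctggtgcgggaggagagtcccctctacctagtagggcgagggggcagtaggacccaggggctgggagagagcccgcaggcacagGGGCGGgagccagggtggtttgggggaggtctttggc
The P4ha1 stretch held ACGTG at 16 bases and GCGTG at 126 and 163 bases before the start. Plod1 held GCGTG at 20 bases before it, and Serpinh1 held ACGTG at 171 bases. Of 32851 mouse promoter windows of the same length, 38.6% held ACGTG or GCGTG and 32.7% held GGGCGG, so either match is common. The heat shock element core GAANNTTC and the box CCAAT were in none of the 3 stretches, against 6.69% and 33.8% of all windows. No marked matches overlap, and a match describes letters only.

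The knockout library held 10700 barcodes and 145331950 molecules (UMIs), and the WT library 10880 barcodes and 115519153 UMIs. The targeted gene Myct1 is not listed in the knockout table, which lists genes that reached 4 UMIs in some barcode, and had 1412 UMIs in the WT table. After filtering, 8222 knockout and 8120 WT cells were kept. Although the labels name endothelial cells as the source, endothelial cells made up 3.76% of knockout and 6.58% of WT cells, and Krt8/Krt18 positive cells 77.2% and 42.6%. The classes held 309 knockout and 534 WT endothelial cells, 22 and 86 mural cells, 127 and 2793 fibroblasts, and 6348 and 3456 Krt8/Krt18 positive cells. All 15 endothelial markers, all 10 fibroblast markers and every listed mural marker were detected in their own class in both libraries. Fibroblasts were 1.54% of knockout and 34.4% of WT cells. Of the fibroblasts, 38 knockout and 43 WT cells had a barcode also present in the other library, and fibroblast ratios are given with and without them.

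Levels are counts per 1000000 (CPM) of a class's summed UMIs over the shared genes. The median gene was lower in the knockout by 0.34 (endothelial), 0.31 (mural), 0.11 (fibroblast) and 0.25 (Krt8/Krt18 positive) on the log2 scale, and member ratios are to be read against these shifts. A gene is counted as different at 1.5-fold or more with at least 20 UMIs over both libraries.

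P4ha1 was measured in all classes and differed most between the libraries in mural and endothelial cells. In endothelial cells its level was 106 CPM in the knockout (93.8 to 118) and 67.2 CPM in WT (59.3 to 75.8), a log2 ratio of 0.65 (0.41 to 0.90). Mural cells had 318 CPM in the knockout (243 to 408) and 131 CPM in WT (103 to 165), a log2 ratio of 1.28 (0.76 to 1.79). These intervals do not overlap, but single cells weighed on both. The knockout mural value rested on 61 UMIs in 22 cells, 21 of them in 1 cell, and without that cell the mural ratio was 0.67. Without the richest knockout endothelial cell, which also held 21 UMIs, the endothelial ratio was 0.55, under the 1.5-fold line. It was also under that line at 0.47 with a stricter gate, 0.44 with classes from clusters and 0.57 without doublet-scored cells, and the mural ratio at 0.41 with classes from clusters. Fibroblasts had 286 CPM in the knockout and 319 CPM in WT, a log2 ratio of -0.16 (-0.32 to 0.0015), and -0.14 without the shared barcodes. In Krt8/Krt18 positive cells the levels were 223 CPM in the knockout and 259 CPM in WT, a log2 ratio of -0.21 (-0.24 to -0.18). Endothelium was thus the lowest of the classes for P4ha1 in both libraries. At the top, mural cells and fibroblasts of the knockout could not be told apart by counting error, whereas in WT fibroblasts exceeded Krt8/Krt18 positive cells by 1.23-fold.

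Plod2, the telopeptide lysyl hydroxylase, was higher in endothelium and lower in fibroblasts of the knockout library, and the endothelial difference depended on the setting. It had 41.6 CPM in knockout endothelium (34.4 to 49.9) and 23.7 CPM in WT endothelium (19.1 to 29.0), a log2 ratio of 0.81 (0.41 to 1.23). That ratio was under 1.5-fold in 5 of 11 alternative settings, at 0.40 with a stricter gate, 0.37 with classes from clusters, 0.47 without doublet-scored cells, 0.31 after thinning and 0.35 with cells weighted equally. In fibroblasts it had 288 CPM in the knockout (258 to 320) and 481 CPM in WT (472 to 489), a log2 ratio of -0.74 (-0.90 to -0.59), and -0.72 without the shared barcodes. Relative to genes of like transcript length the fibroblast ratio was -0.57, under 1.5-fold. Mural cells had 78.1 CPM in the knockout and 50.3 CPM in WT from 15 and 28 UMIs, and the interval of that ratio, -0.38 to 1.59, spans no difference. Krt8/Krt18 positive cells had 167 CPM in the knockout and 196 CPM in WT, a ratio of -0.23 that lies at the class shift. The order of classes was the same in both libraries, fibroblasts first, then Krt8/Krt18 positive, mural and endothelial cells, with each step beyond counting error. Markers of other cells differed beside the vascular values of P4ha1 and Plod2: Krt8 and Krt18 summed to 49.0 CPM in knockout and 17.8 CPM in WT endothelium, and to 187 and 10.6 CPM in mural cells. Their part in these ratios was not tested.

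Plod1, the helical lysyl hydroxylase, was highest in endothelium in both libraries, although in the knockout its lead over fibroblasts, 1.12-fold, was within counting error. Endothelial cells had 156 CPM in the knockout (141 to 171) and 282 CPM in WT (266 to 299), a log2 ratio of -0.86 (-1.02 to -0.69). A Plod1 UMI was found in 63.1% of knockout and 78.7% of WT endothelial cells, at median depths of 7360 and 6280 UMIs, and in 36.1% and 53.8% after thinning every cell to 3000 UMIs, with 24 knockout and 36 WT cells left out. In Krt8/Krt18 positive cells thinned in the same way the share was 8.60% and 7.71%. The lower share in knockout endothelium therefore went with more UMIs per cell. Relative to the median gene the endothelial ratio was -0.52, and relative to genes of like transcript length -0.28, both under 1.5-fold. Mural cells had 72.9 CPM in the knockout and 133 CPM in WT from 14 and 74 UMIs, fibroblasts 140 CPM in the knockout and 127 CPM in WT, and Krt8/Krt18 positive cells 32.1 CPM in the knockout and 31.2 CPM in WT. In fibroblasts and Krt8/Krt18 positive cells the intervals of the ratio, -0.10 to 0.36 and -0.04 to 0.12, span 0. The fibroblast log2 ratio was 0.13, and 0.15 without the shared barcodes.

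Serpinh1, the chaperone, separated stromal and vascular cells from Krt8/Krt18 positive cells. Fibroblasts had 2442 CPM in the knockout (2354 to 2532) and 3166 CPM in WT (3144 to 3187), a log2 ratio of -0.37 (-0.43 to -0.32), and -0.36 without the shared barcodes. Mural cells had 1400 CPM in the knockout and 2017 CPM in WT, a log2 ratio of -0.53 (-0.72 to -0.33), and endothelial cells 1159 CPM in the knockout and 1254 CPM in WT, a log2 ratio of -0.11 (-0.18 to -0.05). None of these 3 reached 1.5-fold, but the mural ratio did under 2 alternatives, at -0.94 with classes from clusters and -0.91 with keratin positive cells kept in the class. The endothelial value was above the shift of the median gene but was -0.28 relative to genes of like transcript length. Krt8/Krt18 positive cells had 4.46 CPM in the knockout (4.09 to 4.86) and 11.7 CPM in WT (10.8 to 12.6), which is 260-fold and 107-fold below the endothelial level of the same library. Their log2 ratio was -1.39 (-1.56 to -1.22).

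Lox was mainly a fibroblast transcript. Fibroblasts had 1084 CPM in the knockout (1026 to 1145) and 1489 CPM in WT (1474 to 1503), a log2 ratio of -0.46 (-0.54 to -0.38), and -0.44 without the shared barcodes. In the knockout no Lox UMI was found in 309 endothelial cells, which allows up to 1.08 CPM by the 3-count limit, nor in 22 mural cells, which allows up to 15.6 CPM. WT endothelium had 16.2 CPM and WT mural cells 70.1 CPM, so against the 3-count limit Lox was at least 15.1-fold and at least 4.49-fold lower in these knockout cells. The exact intervals of the log2 ratios reach up to -3.57 and -1.80. The WT endothelial value came from 63 UMIs in 21 of 534 cells, with 32 of them in 1 cell, and was 7.98 CPM without that cell. Krt8/Krt18 positive cells had 0.276 CPM in the knockout (0.189 to 0.390) and 4.83 CPM in WT (4.27 to 5.44), a log2 ratio of -4.13 (-4.70 to -3.60). Col1a1, a fibrillar collagen chain, moved the same way in these classes. It had 1.43 CPM in knockout and 57.9 CPM in WT endothelium, and 2.98 and 30.7 CPM in Krt8/Krt18 positive cells. The 10 fibroblast markers summed to 22.5 CPM in knockout and 83.3 CPM in WT endothelium, with Lum, Mfap5 and Pi16 at 0 in the knockout. In Krt8/Krt18 positive cells they summed to 46.0 and 76.0 CPM, but the highest single marker had 39.0 CPM in the knockout and 24.0 CPM in WT. At least 1 marker there was thus higher in the knockout, and it held most of the knockout sum. The markers Dcn and Pdgfra were lower there, at 1.37 and 2.81 CPM in the knockout and 14.9 and 3.34 CPM in WT. Of 11 collagen chains tested in those cells, 3 were at least 1.5-fold lower in the knockout and 0 higher. The part of fibroblast RNA in the Lox and Serpinh1 ratios of these classes was not tested.

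Loxl2, the crosslinking oxidase also known to act on basement membrane collagen, was highest in mural cells and fibroblasts. Mural cells had 193 CPM in the knockout (136 to 265) and 395 CPM in WT (345 to 451), a log2 ratio of -1.04 (-1.58 to -0.53). With a stricter gate the mural levels were 317 CPM in the knockout and 329 CPM in WT and the ratio was -0.056, under 1.5-fold. Fibroblasts had 279 CPM in the knockout and 328 CPM in WT, a log2 ratio of -0.23 (-0.39 to -0.07), and -0.22 without the shared barcodes. The order of these classes differed, fibroblasts standing 1.45-fold above mural cells in the knockout and mural cells 1.20-fold above fibroblasts in WT; the knockout order turned round with a stricter gate. Endothelial cells had 8.97 CPM in the knockout and 16.5 CPM in WT, a log2 ratio of -0.88 (-1.60 to -0.19) on 25 and 64 UMIs. In WT 26 of the 64 UMIs lay in 1 cell, and without it the ratio was -0.12. Krt8/Krt18 positive cells had 13.9 CPM in the knockout and 12.9 CPM in WT, a log2 ratio of 0.11 (-0.01 to 0.24). Groups of these cells differed in both directions, as given further below.

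**Figure D1:**
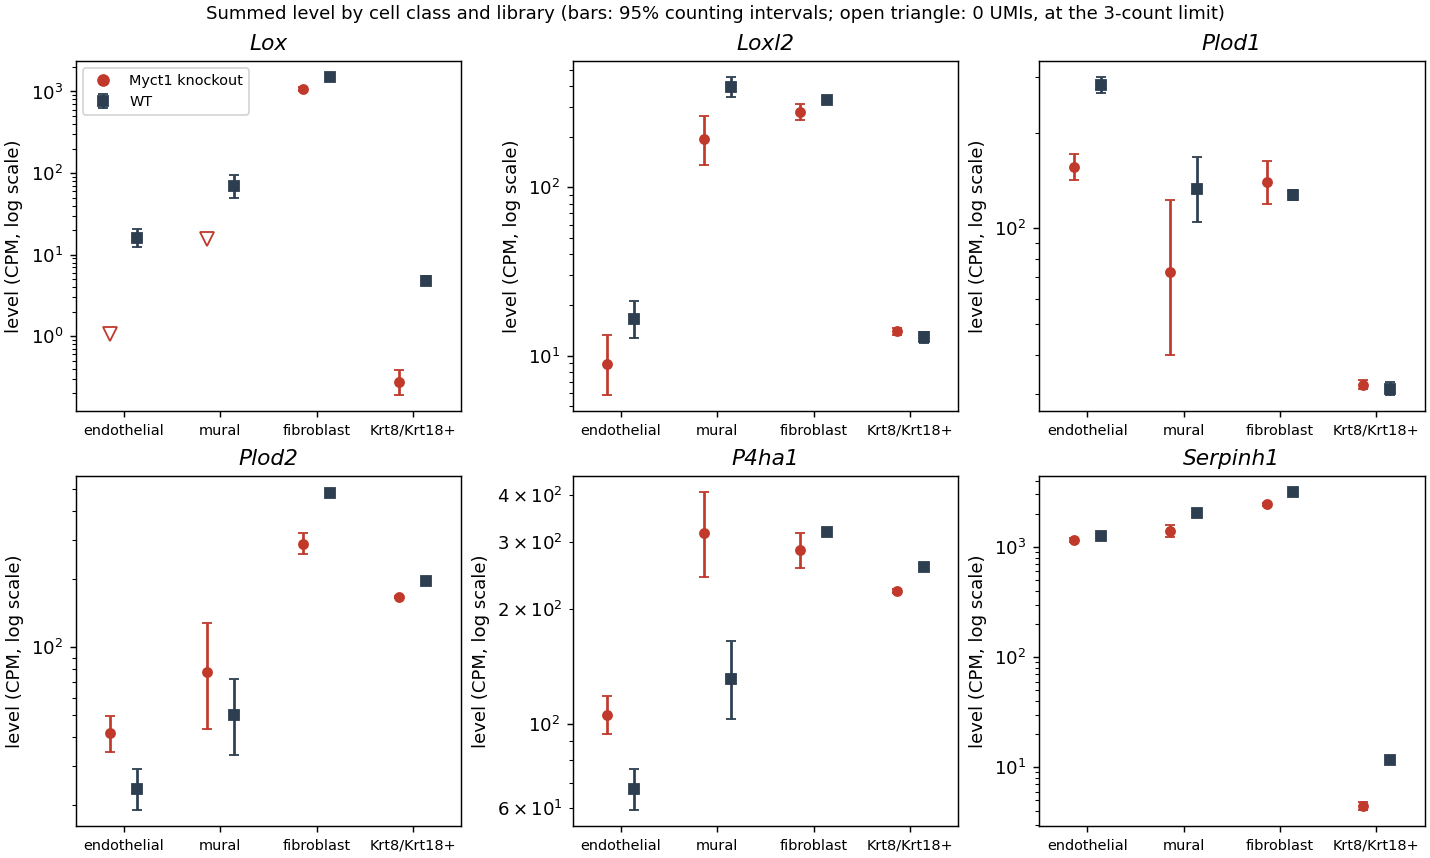
Level of each gene (vertical axis, CPM of the class sum, log scale) in 4 cell classes, Myct1 knockout (round) beside WT (square), with exact 95% counting intervals; an open triangle marks 0 UMIs at the 3-count limit. Plod1 is highest in endothelium, Lox and Serpinh1 in fibroblasts, and Serpinh1 drops to 4.46 and 11.7 CPM in Krt8/Krt18 positive cells.

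Counted by class, 2 members were at least 1.5-fold higher and 3 lower in knockout endothelium, where 46.7% of 8240 genes passed in either direction, 11.1% higher and 35.6% lower. In mural cells 2 were higher and 3 lower, against 49.8% of 5313 genes, 12.4% higher and 37.4% lower. In fibroblasts 1 was lower and none higher, against 40.3% of 8777 genes, 16.8% higher and 23.5% lower, and in Krt8/Krt18 positive cells 2 were lower and none higher, against 24.0% of 8860 genes, 5.10% higher and 18.9% lower. With backgrounds of this size, the count of members in a class is no result about them. The members' median log2 ratio was -0.48, -0.70, -0.30 and -0.22 in these classes, beside -0.34, -0.31, -0.11 and -0.25 for all genes. What differed among the members was direction. In endothelium P4ha1, Plod2 and, at -0.11, Serpinh1 lay above the median gene, and Lox, Loxl2 and Plod1 below it. However, the Loxl2 ratio in endothelium turned to 0.081 and 0.050 under 2 alternative settings. Serpinh1 was at -0.28 relative to genes of like transcript length.

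**Figure D2:**
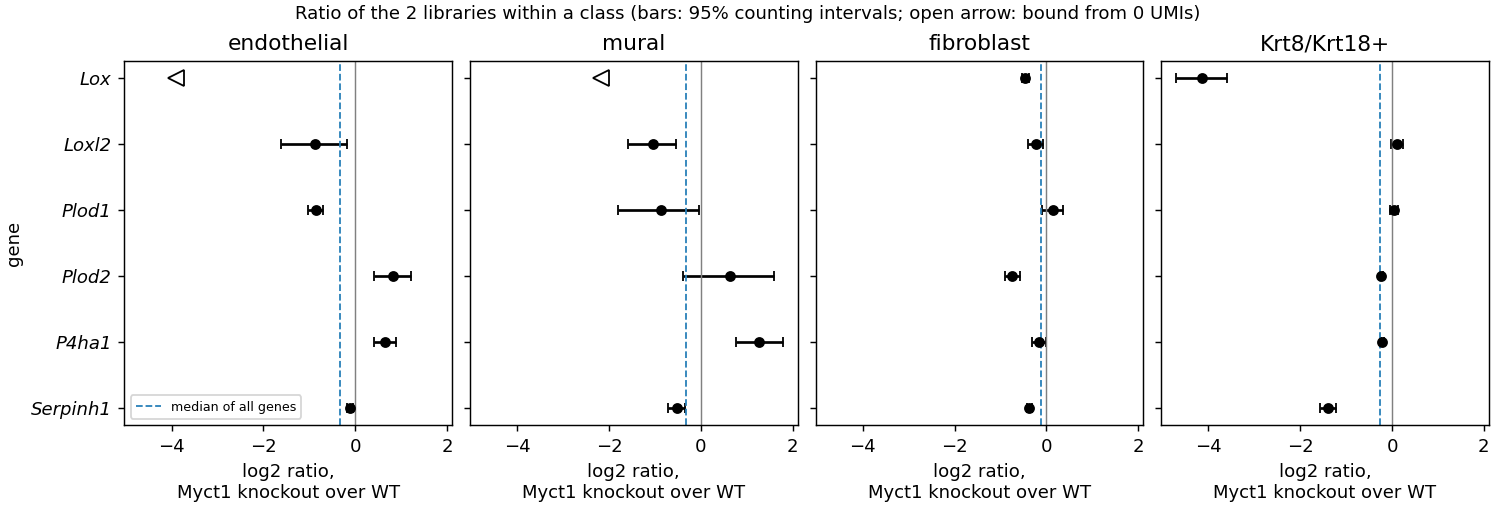
Log2 ratio of Myct1 knockout over WT (horizontal axis) for each gene in each class, with 95% counting intervals; the dashed line is the median of all genes and an open arrow a bound from 0 UMIs. In endothelium Plod2 at 0.81 and P4ha1 at 0.65 lie right of 0, and Plod1 at -0.86 left of it.

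Unsupervised clusters were made without the members, and the libraries were compared again within them. The endothelial cluster led by Gpihbp1 and Cdh5 held 287 knockout and 237 WT cells. There P4ha1 had 84.2 CPM in the knockout and 76.3 CPM in WT, a log2 ratio of 0.14 (-0.17 to 0.46), and Plod2 26.6 and 24.1 CPM, a ratio of 0.15 (-0.42 to 0.72). Neither kept the difference of the whole gate. Plod1 stayed lower, with 162 CPM in the knockout and 259 CPM in WT, a ratio of -0.68 (-0.87 to -0.49) where the cluster's median gene stood at -0.34. Serpinh1 had 1293 CPM in the knockout and 1614 CPM in WT, a ratio of -0.32 that lies at that median. The other endothelial cluster, led by Lrg1 and Ccl21a, held 19 knockout cells, under the minimum of 50, and 321 WT cells. P4ha1 and Plod2 each had 96.6 CPM there in the knockout (44.2 to 183), on 9 UMIs each. In WT P4ha1 had 47.7 CPM (38.4 to 58.5) and Plod2 21.2 CPM (15.2 to 28.8). Plod1 had 258 CPM in the knockout and 311 CPM in WT, and Serpinh1 805 and 840 CPM. The part of class make-up in the gated ratios was not tested.

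Fibroblast clusters of WT cells differed widely in these genes. The cluster led by Col12a1 and Postn, genes of matrix-producing fibroblasts, had the most Lox of the 4 deeper clusters, 2363 CPM, and the most Loxl2, Plod1 and P4ha1, at 429, 204 and 416 CPM. Plod2 was instead highest in the cluster led by Pi16, at 586 CPM, and fell to 70.7 CPM in the cluster led by Apod and Cxcl13. That last cluster kept 1571 CPM of Lox beside the lowest Serpinh1 level, 1203 CPM, while Pi16 fibroblasts had 3396 CPM of Serpinh1. Serpinh1 was at 3347 CPM in the Col12a1 and Postn cluster, near the Pi16 level, while Lox and Plod2 were highest in different clusters. Of the deeper clusters, only that of Col12a1 and Postn held at least 50 cells of both libraries, 54 knockout and 602 WT. Within it Lox had 1167 CPM in the knockout and 2363 CPM in WT, a log2 ratio of -1.02 (-1.12 to -0.92), where the median gene of the cluster stood at -0.20. Its Plod2 ratio was -0.53 (-0.74 to -0.34), P4ha1 -0.52, Loxl2 -0.55, Serpinh1 -0.40 and Plod1 -0.32, so all 6 members lay below the cluster's median gene and Lox alone passed 1.5-fold. The Pi16 cluster, with 19 knockout and 1588 WT cells, went the other way for Lox and Serpinh1. There Lox had 1925 CPM in the knockout (1702 to 2169) and 1151 CPM in WT (1133 to 1169), and Serpinh1 4171 and 3396 CPM, while Plod2 had 442 CPM in the knockout and 586 CPM in WT. A shallow fibroblast cluster of 61 knockout and 138 WT cells, at medians of 553 and 565 UMIs, had log2 ratios of -1.16 for Lox and -1.10 for Loxl2, both with intervals that span 0, and -1.28 for Serpinh1 (-1.87 to -0.73). By summed counts, the lower Lox of the whole class was not shared by all of its clusters. The Pi16 value rested on 270 Lox UMIs in 19 knockout cells, under the minimum of 50 cells, and single cells were not left out there.

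**Figure D3:**
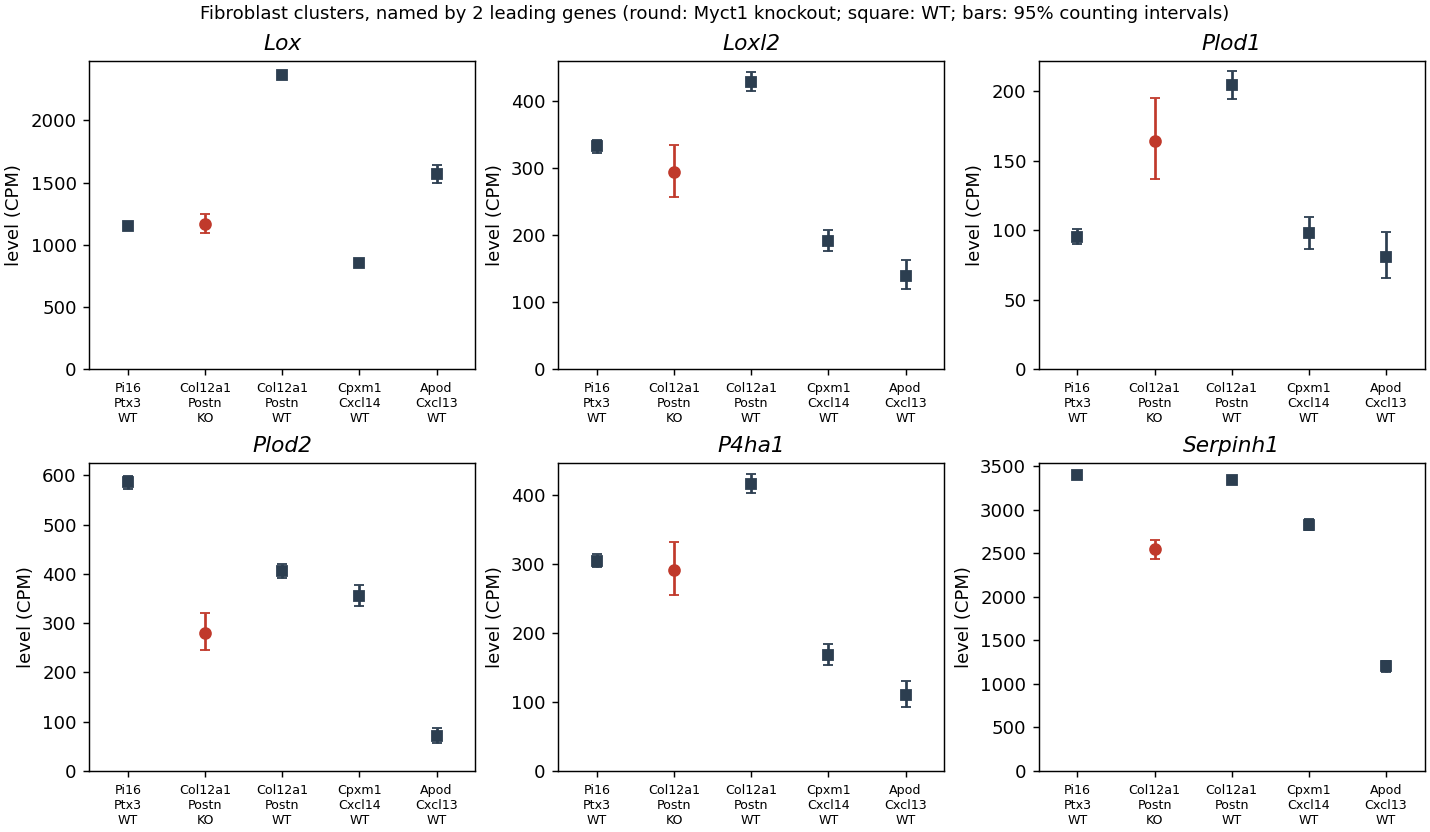
Level (vertical axis, CPM) in fibroblast clusters of at least 50 cells and a median of at least 3000 UMIs, named by their leading genes; the Col12a1 and Postn cluster is shown for the Myct1 knockout (round, left) and WT (square), the others for WT, with 95% counting intervals. Lox peaks in the Col12a1 and Postn cluster at 2363 CPM in WT, Plod2 in the Pi16 cluster at 586 CPM.

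Among Krt8/Krt18 positive cells P4ha1 and Plod2 followed each other from cluster to cluster. Over 17 profiles, each a cluster of 1 library with at least 50 cells, Pearson's r between log-scale levels of P4ha1 and Plod2 was 0.92 (Spearman's rho 0.80), as a description over profiles that share 2 libraries. P4ha1 and the summed level of 16 hypoxia genes gave r = 0.64 and rho = 0.82, Plod2 and that sum r = 0.48, and Plod1 and that sum r = -0.24. A cluster whose 8 leading genes include Ero1l and Slc2a1, both induced by low oxygen, had 397 CPM of P4ha1 in the knockout and 369 CPM in WT, and 248 and 242 CPM of Plod2. It held 496 knockout and 1465 WT cells and had the highest hypoxia sum in WT, 6716 CPM. In the knockout the highest sum, 6516 CPM, was in the cluster led by Hspb1 and Higd1a, where P4ha1 was at 268 CPM and Plod2 at 198 CPM. The shallow cluster led by haemoglobin genes was lowest for both, with P4ha1 at 41.3 CPM in the knockout and 83.5 CPM in WT and Plod2 at 47.9 and 57.5 CPM. Plod1 was highest elsewhere. It had 56.9 CPM in the knockout and 57.4 CPM in WT in the cluster whose leading genes include Dmp1 and Spp1, the WT peak, while the knockout peak among clusters of at least 50 cells, 64.5 CPM, was in a shallow cluster and rested on 27 UMIs. In the Dmp1 and Spp1 cluster the collagen substrates summed to 1636 and 3277 CPM. Within the Ero1l and Slc2a1 cluster the log2 ratios of P4ha1, Plod2 and Plod1 were 0.11, 0.04 and -0.01, all under 1.5-fold. The P4ha1 ratio of the whole class, -0.21, was not that of its deeper clusters. It was 0.56 (0.50 to 0.62) in the cluster led by Rnf19b and Tnc. In the Ifit3, Birc5 and Dmp1 clusters it was 0.16, 0.08 and 0.004. Among shallow clusters it was -1.02 in the haemoglobin cluster and 1.10 in that led by Cxcl10 and Rsad2. Plod2 ratios within clusters lay between -0.26 and 0.28.

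**Figure D4:**
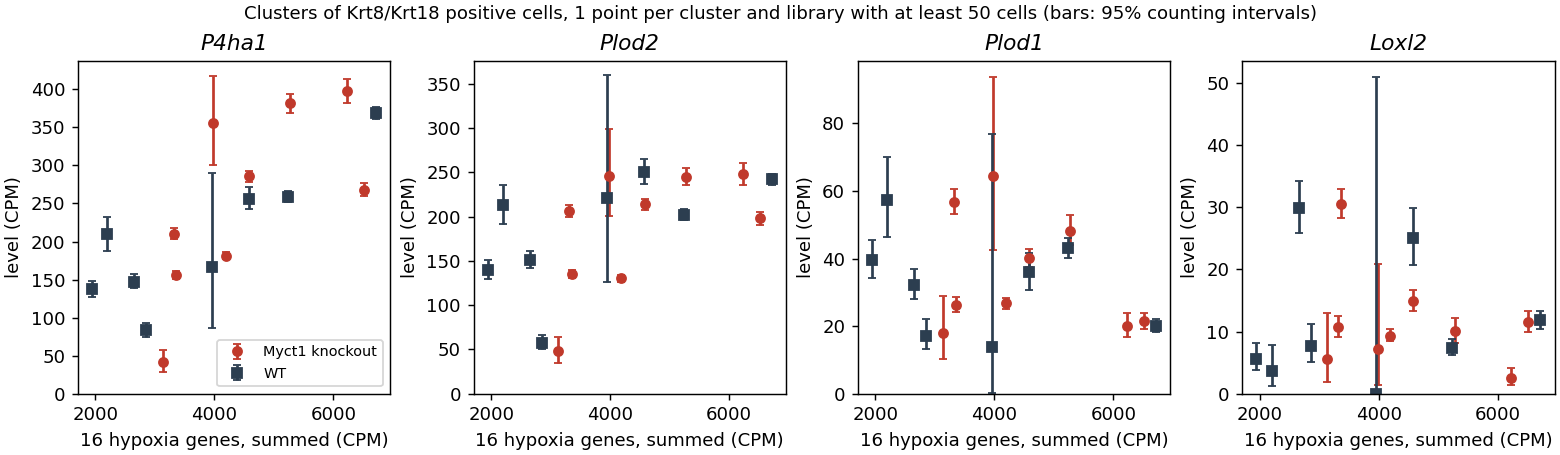
Levels of P4ha1, Plod2, Plod1 and Loxl2 (vertical axes, CPM) against the summed level of 16 hypoxia genes (horizontal axis, CPM) in clusters of Krt8/Krt18 positive cells, Myct1 knockout (round) and WT (square), with 95% counting intervals. P4ha1 reaches 397 and 369 CPM in the Ero1l and Slc2a1 cluster, while Plod1 reaches 56.9 and 57.4 CPM in the Dmp1 and Spp1 cluster at a lower hypoxia sum.

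The crosslinking and chaperone genes were concentrated in a few of these cells. For Loxl2, 57 of 6348 knockout cells (0.898%) had at least 5 UMIs and held 72.5% of the 1615 Loxl2 UMIs, with up to 132 in a single cell. In WT 30 of 3456 cells (0.868%) held 71.3% of 725 UMIs, with up to 55 in a cell. These cells were deeper than the rest, at a median of 22492 UMIs against 16872 in the knockout and 22820 against 15946 in WT. Of the Loxl2-rich cells, 28 of 57 in the knockout and 9 of 30 in WT were in the cluster led by the mitosis genes Birc5 and Top2a, which held 957 of 6348 and 236 of 3456 cells. Loxl2 in that whole cluster was 30.6 CPM in the knockout and 29.9 CPM in WT. Other clusters went both ways. The Loxl2 log2 ratio was -2.22 (-3.05 to -1.50) in the Ero1l and Slc2a1 cluster, on 16 knockout and 267 WT UMIs. It was -0.75 (-1.06 to -0.43) in the Ifit3 cluster and 0.44 in the Rnf19b and Tnc cluster. In the Dmp1 and Spp1 cluster it was 1.59 (0.43 to 3.05), on 170 knockout and 6 WT UMIs. Single cells were not left out there. The summed counts of the Loxl2-rich cells differed between the libraries in other transcripts. How those transcripts were spread over single cells was not examined, so a few cells could hold most of them. Knockout Loxl2-rich cells had 1.53 CPM of Col1a1 and 4.58 CPM of Serpinh1, beside 2.98 and 4.46 CPM in their whole class, while WT Loxl2-rich cells had 756 and 245 CPM beside 30.7 and 11.7 CPM in theirs.

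Cells rich in Serpinh1 carried transcripts of fibroblasts and of endothelium in both libraries. The 28 knockout cells with at least 5 UMIs held 50.5% of 517 UMIs and had 294 CPM of Col1a1 and 58.3 CPM of Cdh5, beside 1.08 and 0.591 CPM in the other knockout cells. The 10 such WT cells held 35.4% of 658 UMIs and had 2312 CPM of Col1a1 and 59.5 CPM of Cdh5, beside 17.8 and 0.982 CPM in the others. P4ha1, by contrast, had a UMI in 86.7% of knockout and 82.1% of WT cells, and Plod2 in 82.6% and 78.6%. Both had far more UMIs, 25893 and 14565 for P4ha1 and 19380 and 11050 for Plod2, and genes were not compared at equal counts. The threshold of 5 UMIs was chosen after the counts had been seen, and the part of doublets in these cells was not tested.

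**Figure D5:**
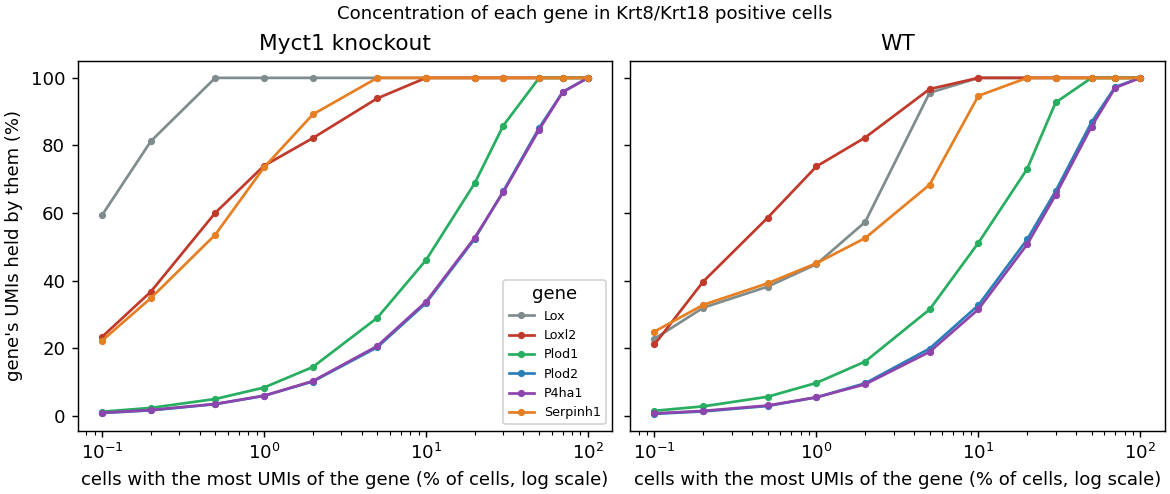
Share of a gene's UMIs (vertical axis) held by the Krt8/Krt18 positive cells richest in it (horizontal axis, percent of cells, log scale), Myct1 knockout left and WT right. Loxl2, Lox and Serpinh1 climb early, with 72.5% and 71.3% of Loxl2 in under 1% of cells. The curves of P4ha1 and Plod2 lie on each other and rise late. Loxl2, Lox and Serpinh1 had fewer UMIs than there were cells, which by itself makes a curve climb early.

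Other genes of collagen maturation were read from a list of 35 symbols, older synonyms included, of which 25 were listed in both tables. In endothelium 4 of 21 tested were at least 1.5-fold higher and 10 lower in the knockout, with a median log2 ratio of -0.56, where 11.1% and 35.6% of all genes were higher and lower. The prolyl hydroxylase P4ha2, a close relative of P4ha1, had 39.8 CPM in the knockout and 15.7 CPM in WT, and lysyl oxidase relatives were low, with Loxl1 at 0 and 7.98 CPM and Loxl3 at 3.95 and 13.4 CPM. Tgm2, which crosslinks matrix proteins by transamidation, had 123 CPM in the knockout and 327 CPM in WT. In fibroblasts 1 of 25 was higher and 8 lower (all genes 16.8% and 23.5%). Among the lower were the procollagen protease enhancer Pcolce2 with 85.8 CPM in the knockout and 261 CPM in WT, and Tgm2 with 28.6 and 66.3 CPM. In Krt8/Krt18 positive cells 1 of 25 was higher and 5 lower (all genes 5.10% and 18.9%), all of those named being under 3 CPM in both libraries: Rcn3, Adamts2, Fkbp10 and P4ha3. Mural cells had 0 higher and 15 lower of 23 (all genes 12.4% and 37.4%).

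The collagen substrates themselves were lower in knockout endothelium for 10 of 11 tested, where 35.6% of all genes were lower, with a median of -1.15, among them Col1a2 at 1.44 CPM in the knockout and 75.4 CPM in WT and Col5a2 at 0.359 and 36.8 CPM. Col1a2 and Col5a2 are fibrillar chains abundant in fibroblasts. The fibroblast markers, at 22.5 CPM in the knockout and 83.3 CPM in WT, moved with them, and their part was not tested. Col4a1 and Col4a2, at far higher levels in endothelium, were lower too. They had 2059 and 1483 CPM in the knockout and 4052 and 3004 CPM in WT. Mural cells also had 10 of 11 substrates lower, with a median of -1.28, where 37.4% of all genes were lower. In fibroblasts 0 of 11 were lower and 1 was higher, Col18a1 at 93.4 CPM in the knockout and 53.2 CPM in WT, with a median of 0.21. Over all 33 cluster profiles r with the summed substrates was 0.94 for Serpinh1, 0.86 for Lox and 0.85 for Loxl2. Within the 17 profiles of Krt8/Krt18 positive cells it was 0.68, 0.28 and -0.19.

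Hypoxia genes were higher in knockout endothelium for 12 of 16 and lower for 1, with a median log2 ratio of 1.09, beside 11.1% of all genes higher and 35.6% lower. The glycolytic enzyme genes Hk2 and Pgk1 had 28.7 and 59.6 CPM in the knockout and 4.37 and 15.4 CPM in WT, and the mitochondrial genes Bnip3 and Higd1a 66.0 and 330 CPM in the knockout and 24.4 and 123 CPM in WT. In the Gpihbp1 and Cdh5 cluster the 16 genes summed to 3278 CPM in the knockout and 1923 CPM in WT, although P4ha1 and Plod2 did not pass 1.5-fold there. In Krt8/Krt18 positive cells 1 of 16 was higher and 6 lower, beside 5.10% and 18.9% of all genes, led by Ero1l at 357 CPM in the knockout and 777 CPM in WT. Fibroblasts had 7 higher and 1 lower of 16, beside 16.8% and 23.5% of all genes, and mural cells 10 higher and 1 lower of 14, beside 12.4% and 37.4%. Krt8 and Krt18 summed to 49.0 CPM in knockout and 17.8 CPM in WT endothelium, and to 187 and 10.6 CPM in mural cells. In the Gpihbp1 and Cdh5 cluster they summed to 23.3 CPM in the knockout and 27.1 CPM in WT. Their part in the hypoxia ratios was not tested. Heat shock genes were listed because Serpinh1 is itself heat inducible. In the knockout 6 of 10 were higher in endothelium, 5 in fibroblasts, 7 in mural cells and 2 in Krt8/Krt18 positive cells. None were lower. Of all genes, 11.1%, 16.8%, 12.4% and 5.10% were higher in these classes. Hspa1a had 522 CPM in knockout and 203 CPM in WT endothelium, and Serpinh1 did not pass 1.5-fold upward in any class.

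The genes most like each member over the 33 profiles, out of 6978 ranked by Pearson's r of log2(CPM + 10), were named as a description, since profiles share libraries and free RNA. Lox was closest to Tmem45a, Pcsk5, Ccdc80, Mmp2 and Lrrc17, with r of 0.98 to 0.97, and Ccdc80 is among the fibroblast gate markers. Loxl2 was closest to Prrx1, Sod3, Sulf1, Cxcl1 and Meg3, with r of 0.95 to 0.93. Serpinh1 was closest to the basement membrane gene Nid1 and to C1qtnf6, Grb10, Rnf144a and Prss23, and Plod1 to Adamts4, Ppap2a, Col4a2, Tcf4 and Dlc1. P4ha1 was closest to Ak4, Vegfa, Plod2, Slc39a6 and Rnf217, and Plod2 to Twist1, P4ha1, Stambpl1, Tpbg and Flnc. P4ha1 and Plod2 were the only pair of members found among each other's 5 nearest genes, at r = 0.83, whereas Serpinh1 with P4ha1 gave r = -0.08.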

How the data were processed

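Droplet 3′ libraries (10x Genomics) of digested tumours were deposited as 1 table of UMI counts per library; the values are raw whole counts per gene and barcode, made with Cell Ranger 2.1.1 and mm10 per the submitters' processing notes. No annotation release is stated in what was used here. The members and gene lists were chosen with earlier results of these data known. Cells with at least 200 genes and at most 10% mitochondrial UMIs were kept. A cell was endothelial or mural with at least 6 markers and 20 marker UMIs per 10000, fibroblast with 5 and 20, and Krt8/Krt18 positive with both keratins, at least 4 of their UMIs per 10000 and under 20 of each other set. Cells passing 2 gates (73 knockout, 234 WT) were left out; these limits were set after marker and first member values had been seen. Doublets were scored by simulation and removed only as an alternative. Clusters came from 2000 variable genes without the members, 40 components, 20 neighbours and Leiden resolution 1, without batch integration. Ratios carry exact conditional binomial intervals, levels exact Poisson and shares exact Clopper-Pearson intervals, at 95%, for counting error only; a count of 0 allows 3. The ratio and interval steps were tested on simulated data. At most 4 genes per list and class of at least 50 cells in each library were named, by size of ratio, and the 5 nearest genes per member. Col4a1 and Col4a2 in endothelium were named besides. Transcript length was matched for 8771 of 9127 symbols (GENCODE). Tools were leidenalg 0.10.2, scikit-learn 1.9.0, scipy 1.17.1 and numpy 2.4.6, with pandas 2.3.3 and matplotlib 3.10.9, in Python 3.11.15.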

Additional observations from a re-analysis of the deposited data

Results flagged for a closer look

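Plod2 was picked out because its ratio between the libraries pointed in opposite directions in different cell classes, each past 1.5-fold with an interval that excludes 0: the log2 ratio of knockout over WT was 0.81 in endothelial cells and -0.74 in fibroblasts. The difference between the classes was not tested, since each genotype had 1 library. The fibroblast value ranged from -0.99 to -0.57 over 11 alternatives, and fell under 1.5-fold in 1, relative to genes of like length. The endothelial value ranged from 0.31 to 1.27 and fell under 1.5-fold in 5. Within the clusters that held enough cells of both libraries neither side passed 1.5-fold, at 0.15 in the Gpihbp1 and Cdh5 endothelial cluster and -0.53 in the Col12a1 and Postn fibroblast cluster. The Pi16 fibroblasts, highest in Plod2 in WT, numbered 19 in the knockout and 1588 in WT.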

How the results depend on the processing

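Over 11 alternative settings, 158 member ratios moved by less than counting error, 82 moved further and 2 turned round: Loxl2 in endothelium was 0.081 with a mitochondrial limit of 20% and 0.050 with cells weighted equally, against -0.88. The count of members higher in knockout endothelium, 2, was 0 with the stricter gate, with classes from clusters and without doublet-scored cells, and 1 after thinning to 3000 UMIs or with equal weights. The count lower there, 3, was 1 under trimmed means, relative to the median gene, after thinning and relative to genes of like length. In mural cells the 2 higher became 1 with the stricter gate, classes from clusters, the 20% mitochondrial limit, thinning and with keratin positive cells kept. In fibroblasts the 1 lower became 2 with equal weights and 0 relative to genes of like length. The other 80 counts stayed within 1.5 times. The cause was not tested. With the stricter gate the class order of the knockout turned for Loxl2 (fibroblast over mural -0.17) and P4ha1 (mural over fibroblast -0.57). Length matching, shared barcodes and keeping keratin positive cells were alternatives added after the data had been seen. No paired analysis was possible because each genotype had 1 library and the labels give no replicate numbers. The mural class held 22 knockout cells, and its intervals are wide.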
